A study of Mus musculus with 8 samples.

Results

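The mitotic spindle, kinetochore and cytokinesis genes described here are 56 genes whose products build the spindle, attach chromosomes to it and divide the cell. They were chosen by name, as rows of the array table that carry exactly 1 gene symbol, with the brightest row of each gene over the 8 arrays. Of the 56, 55 were found among the 22180 genes with such a row, and Ncapg had none, because its row carries a second symbol. All 55 passed the limit for dim genes, a mean of at least 5.24 over the 8 arrays (the median of all rows), and their lowest value on any array was 5.90. The study measured RNA of sorted splenic CD8 T cells on 8 arrays, 4 from mice treated with a blocking antibody to the interleukin 10 receptor (anti-IL-10R) and 4 from mice treated with an isotype control antibody. In both groups the animals were female C57BL/6 mice (the strain field is spelled C56BL/6) that carried transplanted leukaemia cells of Eµ-TCL1 mice, in which the TCL1 oncogene, expressed in B cells, causes a disease like chronic lymphocytic leukaemia. Antibody treatment began 3 weeks after transplantation and lasted 2 weeks, and spleens were taken at 5 weeks. The sorted cells were lineage-negative T cells with surface CD8, low CD127, intermediate to high CD44 and high PD-1, and the age of the mice is not in the labels.

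These genes act late in the cell cycle. In dividing cells many of their transcripts, though not all, accumulate in G2 and mitosis. The kinases PLK1 and the Aurora kinases start mitosis, condensins and topoisomerase II compact the chromosomes, and kinetochores tie the centromeres to spindle microtubules. The spindle checkpoint holds back CDC20 and the anaphase-promoting complex (APC/C), a ubiquitin ligase, until every chromosome is attached, and kinesins and the central spindle then part the chromosomes and the daughter cells. Activated CD8 T cells divide fast, so these transcripts are widely used as a readout of cycling in T cell samples. Many such genes share a promoter element, the cell cycle genes homology region (CHR), through which the DREAM complex represses them in resting cells and MYBL2 and FOXM1 activate them in cycling cells.

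The promoters of 5 members are shown, because nearly all members had lower means in 1 group and the CHR is a known feature of such promoters. They are the 5 with the smallest p-value in the comparison below among members whose promoter window in the RefSeq table (GRCm38.p6) holds a CHR-type match. All 5 therefore hold a match by choice. Nusap1, with a smaller p-value than Ube2c, was passed over because its promoter holds none. Each line gives the 250 bases before the start of transcription, 5′ to 3′ on the strand of the gene. Capitals mark CHR-type matches, which are TTTGAA on either strand (TTCAAA when read on the other) and TTTAAA, and CCAAT boxes on either strand (CCAAT or ATTGG). In Ube2c a pair of CCAAT matches on opposite strands overlap. The positions are chr7:122159185-122159434 (plus strand) for Plk1, chr2:158767849-158768098 (plus strand) for Fam83d, chr8:22185820-22186069 (minus strand) for Ckap2, chr7:127042421-127042670 (minus strand) for Kif22 and chr2:164769679-164769928 (plus strand) for Ube2c.
Plk1: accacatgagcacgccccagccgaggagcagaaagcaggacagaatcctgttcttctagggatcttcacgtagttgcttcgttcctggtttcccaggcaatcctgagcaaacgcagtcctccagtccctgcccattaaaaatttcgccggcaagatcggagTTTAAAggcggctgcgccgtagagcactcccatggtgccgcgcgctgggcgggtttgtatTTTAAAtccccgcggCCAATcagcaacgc
Fam83d: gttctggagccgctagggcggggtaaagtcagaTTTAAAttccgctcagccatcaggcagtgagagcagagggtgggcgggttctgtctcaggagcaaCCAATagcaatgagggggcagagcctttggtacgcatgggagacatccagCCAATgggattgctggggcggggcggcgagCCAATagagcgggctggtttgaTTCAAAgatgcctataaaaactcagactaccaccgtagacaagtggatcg
Ckap2: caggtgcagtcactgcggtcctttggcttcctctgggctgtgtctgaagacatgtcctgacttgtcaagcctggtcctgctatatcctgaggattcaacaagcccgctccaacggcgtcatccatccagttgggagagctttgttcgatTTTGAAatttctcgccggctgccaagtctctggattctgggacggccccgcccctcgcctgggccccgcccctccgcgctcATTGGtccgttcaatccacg
Kif22: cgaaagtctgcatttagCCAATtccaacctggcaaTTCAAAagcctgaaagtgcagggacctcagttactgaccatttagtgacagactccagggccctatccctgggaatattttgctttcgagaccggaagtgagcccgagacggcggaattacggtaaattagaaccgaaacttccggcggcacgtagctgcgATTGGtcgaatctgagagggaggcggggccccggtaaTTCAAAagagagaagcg
Ube2c: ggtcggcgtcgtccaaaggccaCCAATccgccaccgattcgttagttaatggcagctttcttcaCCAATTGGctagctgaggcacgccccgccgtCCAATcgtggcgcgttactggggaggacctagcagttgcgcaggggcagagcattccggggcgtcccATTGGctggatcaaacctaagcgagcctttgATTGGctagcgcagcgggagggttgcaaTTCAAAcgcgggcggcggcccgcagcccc

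In these 250 bases the CHR-type match nearest to the start began 29 bases before it in Plk1, 50 in Fam83d, 101 in Ckap2, 17 in Kif22 and 29 in Ube2c. A CCAAT box lay further upstream than that match in Fam83d (72 bases before the start), Kif22 (54) and Ube2c (57), and nearer to the start in Plk1 (14) and Ckap2 (20). Over the whole window of 250 bases before and 50 after the start, the table held 52 promoters of 47 of the 55 members. Of these promoters 39 (75%) held a CHR-type match, against 19.1% of the 11829 promoters of all genes tested and 27.6% of all 32851 promoters in the table. Within 50 bases of the start, a window chosen after the positions were seen, the share was 63.5% of the member promoters and 4.99% of those of all genes tested. CCAAT boxes stood in 76.9% of the member promoters, against 37.3% of those of all genes tested. Both motifs stood in 63.5% of the member promoters and 7.52% of those of all genes tested. Median GC content was 58.8% in the member promoters and 60.3% in those of all genes tested. These are letter matches, not measured binding. The promoters of Pttg1, Nusap1, Nuf2, Mad2l1, Kif18a and Ncaph held neither motif.

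**Figure D1:**
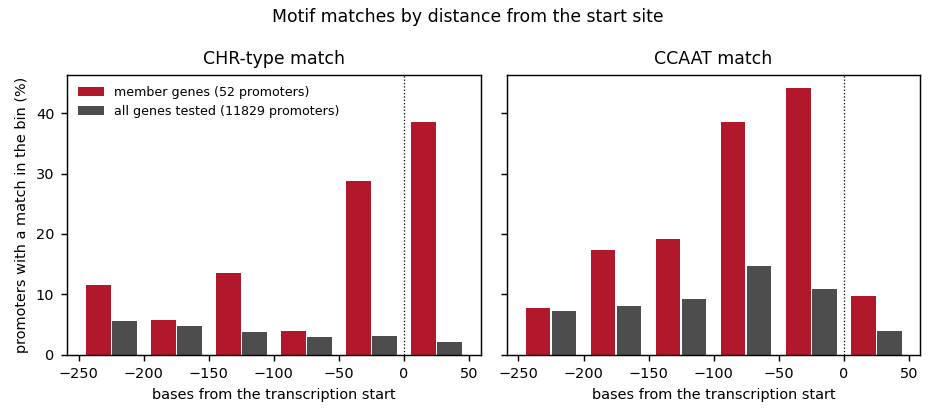
Share of promoters (percent) with a CHR-type match (left) or a CCAAT box (right) that begins in each bin of 50 bases, by distance from the start of transcription, for the 52 promoters of member genes and the 11829 promoters of all genes tested. CHR-type matches of member genes lie mostly in the bins just before and just after the start (28.8% and 38.5% of promoters), CCAAT boxes in the 2 bins before it (38.5% and 44.2%).

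The mitotic genes were lower after IL-10R blockade. All but 1 of the 55 members had a lower mean in the anti-IL-10R group, and the median difference was −0.61 on the log2 scale (anti-IL-10R minus isotype), against 0.03 over all 12019 genes tested, of which 45.3% were lower. Of the members, 14 (25.5%) fell past the threshold, an adjusted p below 0.05 in limma's test across all genes with Benjamini-Hochberg adjustment, and none rose (no member was higher at an unadjusted p below 0.05). Over all genes tested 1.3% were called lower (156 genes) and 1.23% higher (148 genes). At an unadjusted p below 0.05, 45 members were lower, as were 8.53% of all genes tested. At that level 1377 of the 12019 genes tested were higher. The 14 were Plk1, Ube2c, Bub1, Espl1, Cdc20, Cdca8, Birc5, Ndc80, Cenpe, Kif22, Fam83d, Ckap2, Nusap1 and Tpx2. In 27 members (49.1%) every anti-IL-10R array lay below every isotype array, as for 5.99% of all genes tested. A lower signal in sorted bulk RNA can come, among other sources, from fewer dividing cells or from less of these transcripts per cell. These cannot be told apart here, and markers of other cells are given below.

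Isotype replicate 1 stood apart from the other arrays, both over all tested genes (Pearson's r, taken across genes that are no independent replicates, 0.915 to 0.929 with the others, against 0.962 to 0.986 among the other 7) and in these genes. It had the lowest isotype value in 42 of the 55 members (76.4%), against 53.6% of all genes tested. The mean signal of the 55 members was 8.59, 8.32, 8.43 and 8.26 in anti-IL-10R replicates 1 to 4 (8.40 ± 0.14, SD, n = 4), against a range of 8.63 to 9.22 in the isotype arrays (8.99 ± 0.26, SD, n = 4). The lowest of these, isotype replicate 1, lay just above the highest anti-IL-10R array. Of the 28 members with overlapping groups, 23 did not overlap once it was left out, so that 50 members were then apart, as were 14.2% of all genes tested. Without it 47 members passed the threshold (85.5%, where 5.9% of all genes tested were called lower), all 14 named above among them, and the median difference was −0.74. The count fell when any other array was left out: to 2 without anti-IL-10R replicate 1 (0.316% of all genes called lower) or isotype replicate 2 (0.183%), and to 1 without isotype replicate 3 (0.2%). It was 0 in limma without anti-IL-10R replicate 2 (0.0499%), 3 (0.0416%) or 4 (0.0499%) or isotype replicate 4 (0.00832%), with 35 to 40 members lower at an unadjusted p below 0.05. The median difference stayed between −0.54 and −0.74 in all 8 of these fits, and 54 members were lower in each. After quantile normalization of the arrays 31 members passed, with a median of −0.68. Over all genes that scaling called 427 lower (3.55%) and 204 higher. Centring each array on its median called 75 lower (0.624%) and 42 higher, with 7 members past the threshold, as without the limit for dim genes (0.352% of all genes called lower).

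**Figure D2:**
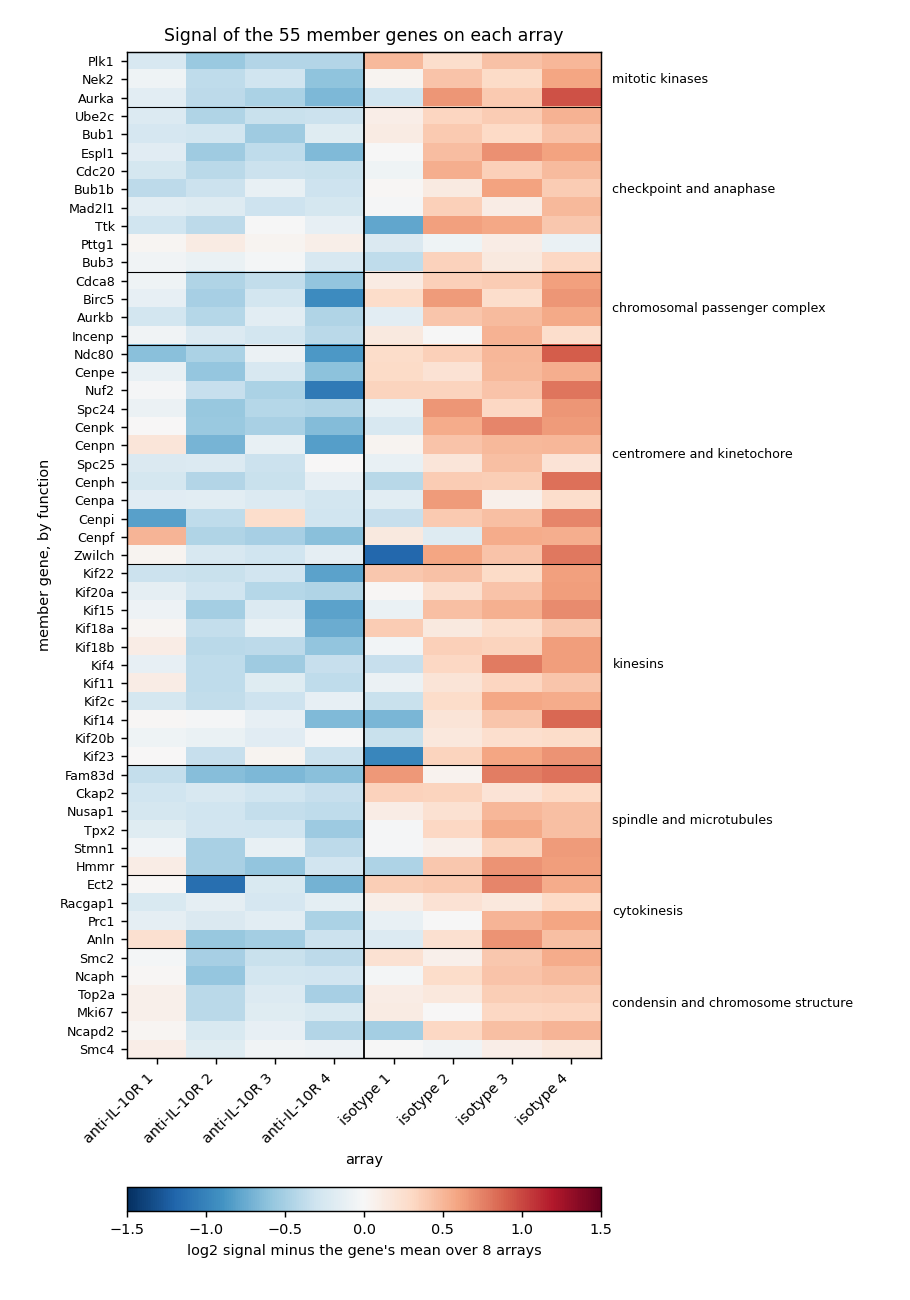
Log2 signal of the 55 member genes on each array, shown as the deviation from the mean of that gene over 8 arrays (colour scale). Anti-IL-10R arrays are left and isotype arrays right of the line, and genes are grouped by function, with the smallest p first. The anti-IL-10R columns are mostly below and the isotype columns mostly above the mean, and isotype replicate 1 is the palest of its group, with values far below the mean for Zwilch, Kif23, Ttk and Kif14.

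Markers of the sorted cells and of other cells were set side by side between the groups, list by list. The 7 genes of the sort, among them Cd8a and Pdcd1 (PD-1), had a mean over the list of 11.22 to 11.26 in the anti-IL-10R arrays and 10.74 to 11.08 in the isotype arrays. All 7 had a higher mean in the anti-IL-10R group, with a median difference of 0.27. The 8 B cell markers in the table averaged 4.87 to 5.07 in the anti-IL-10R arrays and 4.97 to 5.52 in the isotype arrays, and 2 of them were under the limit for dim genes on every array. All 8 had a lower mean in the anti-IL-10R group. With that mean as a covariate the median difference of the mitotic genes was −0.58. No member then passed in limma (32 were lower at an unadjusted p below 0.05), and 0.00832% of all genes were called lower.

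Plasma cell markers (8 genes, 2 under the limit on every array) averaged 6.49 to 6.59 in the anti-IL-10R arrays and 6.54 to 6.81 in the isotype arrays. Directions within this list differed: Prdm1 and Irf4 had higher means in the anti-IL-10R group (differences 0.26 and 0.13), and its other genes lower ones. In the erythroid list below, 3 genes had higher means, and Epor and Tfrc lower ones (−0.16 and −0.64). Erythroid markers (5 genes, 1 under the limit) averaged 5.28 to 5.59 in the anti-IL-10R arrays and 5.33 to 5.68 in the isotype arrays, and myeloid markers (10 genes, 6 under the limit) averaged 5.13 to 5.33 in the anti-IL-10R arrays and 5.08 to 5.54 in the isotype arrays. Natural killer cell markers (5 genes, 1 under the limit), of which Nkg7 and Eomes are also expressed by effector CD8 T cells, averaged 7.47 to 7.71 in the anti-IL-10R arrays and 7.25 to 7.70 in the isotype arrays. Markers of CD4 T cells (5 genes, 1 under the limit) averaged 5.26 to 5.50 in the anti-IL-10R arrays and 5.41 to 5.97 in the isotype arrays. For dendritic cells (6 genes, 2 under the limit) the ranges were 5.97 to 6.11 in the anti-IL-10R arrays and 6.06 to 6.22 in the isotype arrays. Directions were mixed in these 4 lists too. Higher means in the anti-IL-10R group were found for 7 myeloid, 4 natural killer, 2 CD4 and 2 dendritic cell genes. Foxp3 of the CD4 list had the largest difference of all these markers, −0.92 ± 0.47. Isotype replicate 1 was the lowest array in the genes of the sort and the highest isotype array in the plasma cell, myeloid, natural killer and CD4 lists. No marker in these lists passed the threshold in limma when all genes were tested, dim ones included; the smallest adjusted p was 0.108, for the plasma cell gene Jchain. The part of the cell types in this paragraph in the differences was not tested.

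The mitotic kinases were lower by the largest median of the functional classes, −0.84 over 3 members, of which 1 passed the threshold. For the counts in each class, the shares over all genes tested were 1.3% called lower and 5.99% lower with groups that did not overlap. At an unadjusted p below 0.05 the share was 8.53%. Plk1 (transcript cluster 17482739), which drives mitotic entry, centrosome maturation and spindle assembly, had signals of 10.09, 9.78, 9.89 and 9.89 in the anti-IL-10R arrays, against 10.83, 10.60, 10.78 and 10.83 in the isotype arrays. The groups were far apart relative to their spread, and isotype replicate 1 was not the lowest isotype array. Plk1 fell by 0.84 ± 0.11 (SE), to 55.7% of the isotype level (95% confidence interval of the log2 difference −1.09 to −0.59, limma adjusted p = 0.017). Nek2, a kinase that parts the centrosomes, had 7.98, 7.67, 7.75 and 7.45 in the anti-IL-10R arrays, against 8.08, 8.47, 8.33 and 8.64 in the isotype arrays. Its groups did not overlap, but the difference of −0.67 ± 0.16 missed the threshold (adjusted p = 0.0558). Aurka, which acts at the spindle poles and activates PLK1, differed by −0.85 ± 0.25. Its groups overlapped through isotype replicate 1 (8.05), and without that array the difference was −1.09.

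Among the 9 checkpoint and anaphase genes, 8 were lower, 4 passed the threshold and 6 had groups that did not overlap, with a median of −0.57. Ube2c, the ubiquitin-conjugating enzyme that works with the APC/C, had 8.56, 8.31, 8.44 and 8.44 in the anti-IL-10R arrays, against 8.86, 9.09, 9.14 and 9.29 in the isotype arrays. Isotype replicate 1 was the lowest isotype array and still above all treated ones, and Ube2c fell by 0.66 ± 0.12 (SE, limma adjusted p = 0.0331). Bub1, a checkpoint kinase of the kinetochore, had 7.72, 7.70, 7.44 and 7.79 in the anti-IL-10R arrays, against 8.10, 8.36, 8.27 and 8.40 in the isotype arrays. It fell by 0.62 ± 0.12 (adjusted p = 0.0371), again without overlap. Espl1, which encodes separase, the protease that cuts cohesin at anaphase, had 8.41, 8.04, 8.20 and 7.91 in the anti-IL-10R arrays, against 8.56, 9.03, 9.25 and 9.18 in the isotype arrays. The gap between the groups was narrow, since isotype replicate 1 was far below the other isotype arrays, and Espl1 fell by 0.87 ± 0.17 to 54.8% of the isotype level (adjusted p = 0.0382). Cdc20, the activator of the APC/C that the checkpoint restrains, had 9.38, 9.22, 9.32 and 9.30 in the anti-IL-10R arrays, against 9.57, 10.18, 9.99 and 10.11 in the isotype arrays. Its groups were parted by a narrow gap below isotype replicate 1, and it fell by 0.66 ± 0.14 (adjusted p = 0.048). The checkpoint proteins Bub1b and Mad2l1 differed by −0.57 ± 0.14 and −0.47 ± 0.13 without overlap and did not pass. Ttk, the kinase at the top of the checkpoint, and Bub3, the partner of BUB1, overlapped through isotype replicate 1 and differed by −0.41 ± 0.29 and −0.21 ± 0.17, or −0.74 and −0.37 without it. Pttg1, which encodes securin, the inhibitor of separase, was the only member with a positive difference. It had 7.70, 7.80, 7.71 and 7.75 in the anti-IL-10R arrays, against 7.45, 7.61, 7.78 and 7.57 in the isotype arrays, and differed by 0.14 ± 0.11 with overlapping groups (95% confidence interval −0.10 to 0.37).

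The chromosomal passenger complex, in which INCENP, survivin (Birc5) and borealin (Cdca8) bring Aurora B (Aurkb) to centromeres and later to the central spindle, had all 4 subunits lower, with a median of −0.70. Of them 2 passed. Cdca8 had 8.86, 8.48, 8.55 and 8.33 in the anti-IL-10R arrays, against 9.06, 9.28, 9.31 and 9.55 in the isotype arrays, a fall of 0.74 ± 0.15 (SE, limma adjusted p = 0.0382). Birc5 had 9.09, 8.71, 8.94 and 8.26 in the anti-IL-10R arrays, against 9.48, 9.85, 9.47 and 9.88 in the isotype arrays, a fall of 0.92 ± 0.19 to 52.8% of the isotype level (adjusted p = 0.042). In both genes anti-IL-10R replicate 1 was the highest and replicate 4 the lowest of the treated arrays, and the groups did not meet. Incenp also had groups that did not overlap (−0.47 ± 0.14), whereas those of Aurkb overlapped (−0.65 ± 0.17), through isotype replicate 1 at 9.79. Neither passed the threshold with 8 arrays, and Aurkb did without that array (adjusted p = 0.00644). With another array left out, the adjusted p of Aurkb in limma reached 0.173.

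All 12 genes of the centromere and kinetochore were lower, with a median of −0.67, and 2 of them passed the threshold. The NDC80 complex, the rod that grips the microtubule, was represented by all 4 of its subunits. Ndc80 had 8.24, 8.39, 8.78 and 8.01 in the anti-IL-10R arrays, against 9.14, 9.23, 9.37 and 9.78 in the isotype arrays. Its partner Nuf2 had 8.39, 8.06, 7.94 and 7.35 in the anti-IL-10R arrays, against 8.74, 8.74, 8.84 and 9.21 in the isotype arrays. Both were separated between the groups. Ndc80 fell by 1.02 ± 0.19 (SE), to 49.2% of the isotype level (limma adjusted p = 0.0334), and Nuf2 differed by −0.95 ± 0.21, just short of the threshold (adjusted p = 0.0513). The other pair of the complex, Spc24 and Spc25, differed by −0.76 ± 0.19 and −0.37 ± 0.14 with overlapping groups. Cenpe, a kinesin of the kinetochore that moves chromosomes to the spindle equator, had 8.29, 7.82, 8.16 and 7.78 in the anti-IL-10R arrays, against 8.69, 8.62, 8.89 and 8.95 in the isotype arrays, and fell by 0.77 ± 0.15 (adjusted p = 0.035). The inner kinetochore genes Cenpk, Cenpn, Cenpi and Cenph differed by −0.84 ± 0.23, −0.72 ± 0.22, −0.61 ± 0.27 and −0.58 ± 0.23, and Cenpa, the histone H3 variant that marks the centromere, by −0.40 ± 0.16. In these 5 genes the groups overlapped, and none passed. Cenpf, a large protein of the outer kinetochore, overlapped also without isotype replicate 1 (−0.53 ± 0.27), since anti-IL-10R replicate 1 was at 8.13 and the other 3 at 6.99 to 7.16. Zwilch, a part of the complex that carries dynein to kinetochores, had the widest isotype spread of all members, with 7.23, 6.95, 6.89 and 7.05 in the anti-IL-10R arrays, against 6.00, 7.78, 7.61 and 7.98 in the isotype arrays. Its difference was −0.31 ± 0.37, and −0.76 without isotype replicate 1 (adjusted p = 0.00941). With another array left out, the adjusted p of Zwilch in limma reached 0.917.

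The 11 kinesins, motor proteins that slide, cap or shorten microtubules, all had lower means, and 1 passed the threshold; the median was −0.59. Kif22, which pushes chromosome arms away from the poles, had 8.74, 8.73, 8.78 and 8.26 in the anti-IL-10R arrays, against 9.47, 9.50, 9.34 and 9.68 in the isotype arrays. The groups were well apart, with anti-IL-10R replicate 4 below the other 3, and Kif22 fell by 0.87 ± 0.14 (SE), to 54.6% of the isotype level (limma adjusted p = 0.0236). Kif20a, a motor of the central spindle, had 8.22, 8.06, 7.93 and 7.90 in the anti-IL-10R arrays, against 8.37, 8.60, 8.79 and 8.98 in the isotype arrays, and differed by −0.66 ± 0.15 (adjusted p = 0.0515). Kif15, which helps KIF11 to keep the spindle bipolar, had 8.69, 8.25, 8.56 and 7.96 in the anti-IL-10R arrays, against 8.66, 9.21, 9.29 and 9.47 in the isotype arrays, a difference of −0.79 ± 0.21 with groups that overlapped through isotype replicate 1. Kif4, Kif18b, Kif18a, Kif2c and Kif11 differed by −0.69 ± 0.23, −0.64 ± 0.18, −0.59 ± 0.17, −0.54 ± 0.20 and −0.42 ± 0.15 and did not pass. Of these Kif18a alone had groups that did not overlap. Kif14 and Kif23, motors of cytokinesis, and Kif20b had the smallest differences of the class, −0.39 ± 0.30, −0.31 ± 0.33 and −0.18 ± 0.15. Kif23 had 8.94, 8.58, 8.97 and 8.61 in the anti-IL-10R arrays, against 7.96 in isotype replicate 1 and 9.27, 9.52 and 9.61 in the other isotype arrays. Without that array the difference of Kif23 was −0.69 (adjusted p = 0.0178), that of Kif14 −0.68 and that of Kif20b −0.32, and no kinesin had overlapping groups. With another array left out, the adjusted p of Kif23 in limma reached 0.863.

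Of the 6 spindle and microtubule genes, all were lower, 4 passed the threshold and 5 had groups that did not overlap, with a median of −0.63. Fam83d, which recruits casein kinase to the spindle, had 7.37, 7.09, 7.06 and 7.10 in the anti-IL-10R arrays, against 8.38, 7.78, 8.50 and 8.54 in the isotype arrays. No treated array reached the isotype arrays, of which replicate 2 was lowest, and Fam83d fell by 1.15 ± 0.17 (SE), to 45.2% of the isotype level, the largest change among the members (limma adjusted p = 0.0213). Ckap2, a microtubule stabiliser, had 7.14, 7.20, 7.14 and 7.09 in the anti-IL-10R arrays, against 7.78, 7.76, 7.64 and 7.73 in the isotype arrays. These were the tightest groups of the 14 members that passed, with SDs of 0.05 and 0.06 (n = 4 each), and the fall was 0.59 ± 0.09 (adjusted p = 0.0227). Nusap1, which bundles microtubules around chromosomes, had 9.66, 9.63, 9.57 and 9.55 in the anti-IL-10R arrays, against 10.04, 10.16, 10.43 and 10.38 in the isotype arrays, and fell by 0.65 ± 0.12 (adjusted p = 0.0321). Tpx2, the activator of Aurora A on the spindle, had 8.97, 8.87, 8.86 and 8.62 in the anti-IL-10R arrays, against 9.14, 9.47, 9.73 and 9.61 in the isotype arrays. Isotype replicate 1 was again nearest to the anti-IL-10R arrays, and Tpx2 fell by 0.66 ± 0.15 (adjusted p = 0.0498). Stmn1, which destabilises microtubules, differed by −0.51 ± 0.17 without overlap, and Hmmr by −0.62 ± 0.26 with overlap through isotype replicate 1 (7.61).

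No gene of cytokinesis or of condensin and chromosome structure passed the threshold in limma, although 4 of 4 and 4 of 6 were lower at an unadjusted p below 0.05. Ect2, the exchange factor that activates RhoA for the contractile ring, had 9.11, 7.96, 8.87 and 8.39 in the anti-IL-10R arrays, against 9.46, 9.49, 9.82 and 9.65 in the isotype arrays. The groups were apart but the anti-IL-10R arrays varied (SD 0.51), and the difference of −1.02 ± 0.23 (SE) had an adjusted p of 0.052. Racgap1, which binds ECT2 at the central spindle, had 9.67, 9.76, 9.64 and 9.75 in the anti-IL-10R arrays, against 9.99, 10.11, 10.05 and 10.19 in the isotype arrays, a small and even difference of −0.38 ± 0.10 (adjusted p = 0.0723). Prc1, which bundles the central spindle, and Anln, a scaffold of the ring, differed by −0.49 ± 0.18 and −0.58 ± 0.23. Without isotype replicate 1 all 4 passed. With another array left out, none of the 4 passed in limma. Their adjusted p then reached 0.135 for Ect2, 0.204 for Racgap1, 0.328 for Prc1 and 0.398 for Anln.

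The chromosome structure genes had the smallest median of the classes, −0.45 over 6 members. Smc2, a core subunit of both condensins, had 9.81, 9.34, 9.51 and 9.44 in the anti-IL-10R arrays, against 10.07, 9.91, 10.25 and 10.40 in the isotype arrays, a difference of −0.63 ± 0.15 (limma adjusted p = 0.0554). Its partner Smc4 differed by −0.10 ± 0.11, with overlapping groups and a 95% confidence interval of −0.35 to 0.14. Ncaph, a subunit of condensin I, had 9.39, 8.80, 9.10 and 9.09 in the anti-IL-10R arrays, against 9.36, 9.65, 9.81 and 9.85 in the isotype arrays (−0.57 ± 0.16), and Ncapd2 differed by −0.38 ± 0.22, or −0.61 without isotype replicate 1. Top2a, topoisomerase II alpha, had 9.76, 9.28, 9.48 and 9.18 in the anti-IL-10R arrays, against 9.79, 9.84, 10.05 and 10.07 in the isotype arrays. Mki67, which encodes the proliferation marker Ki-67, had 11.45, 10.98, 11.20 and 11.15 in the anti-IL-10R arrays, against 11.50, 11.39, 11.69 and 11.71 in the isotype arrays. The groups of Top2a almost met (difference −0.51 ± 0.15), and those of Mki67 overlapped (−0.38 ± 0.13). Mki67 did not pass without isotype replicate 1 either (adjusted p = 0.0921), nor did Smc4, Pttg1, Cenpf, Incenp, Kif18a, Kif14 and Kif20b.

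**Figure D3:**
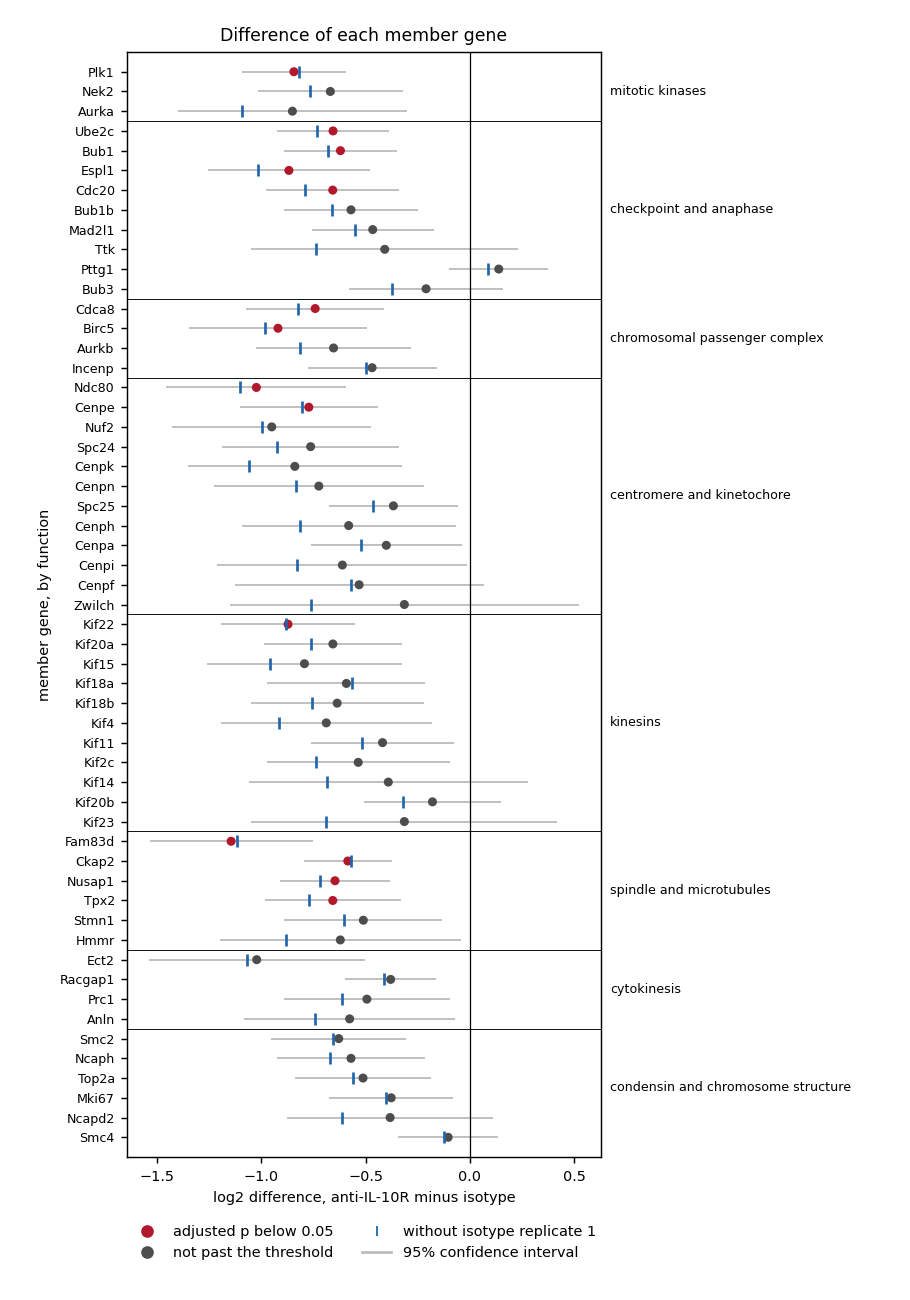
Log2 difference of each of the 55 member genes (anti-IL-10R minus isotype, 4 arrays each) with its 95% confidence interval from limma. Filled points in red passed an adjusted p below 0.05 and grey points did not; blue ticks give the difference without isotype replicate 1. All points but that of Pttg1 lie below 0, and the ticks of Zwilch, Kif23, Ttk and Kif14 lie furthest below their points.

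The same pattern stood in the class means by array. For the kinetochore genes it was 7.98, 7.68, 7.84 and 7.62 in the anti-IL-10R arrays, against 7.98, 8.49, 8.55 and 8.73 in the isotype arrays, so isotype replicate 1 was level with the highest treated array. For the checkpoint and anaphase genes the values were even at 8.58, 8.49, 8.55 and 8.51 in the anti-IL-10R arrays, against 8.64, 9.12, 9.14 and 9.16 in the isotype arrays. The class means of the kinesins and of the chromosome structure genes overlapped between the groups, since isotype replicate 1 (8.21 and 10.17) was below anti-IL-10R replicate 1 (8.34 and 10.22). The other 6 classes did not overlap. Anti-IL-10R replicate 1 was the highest of its group in all 8 classes. Whether the classes differed from each other was not tested.

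**Figure D4:**
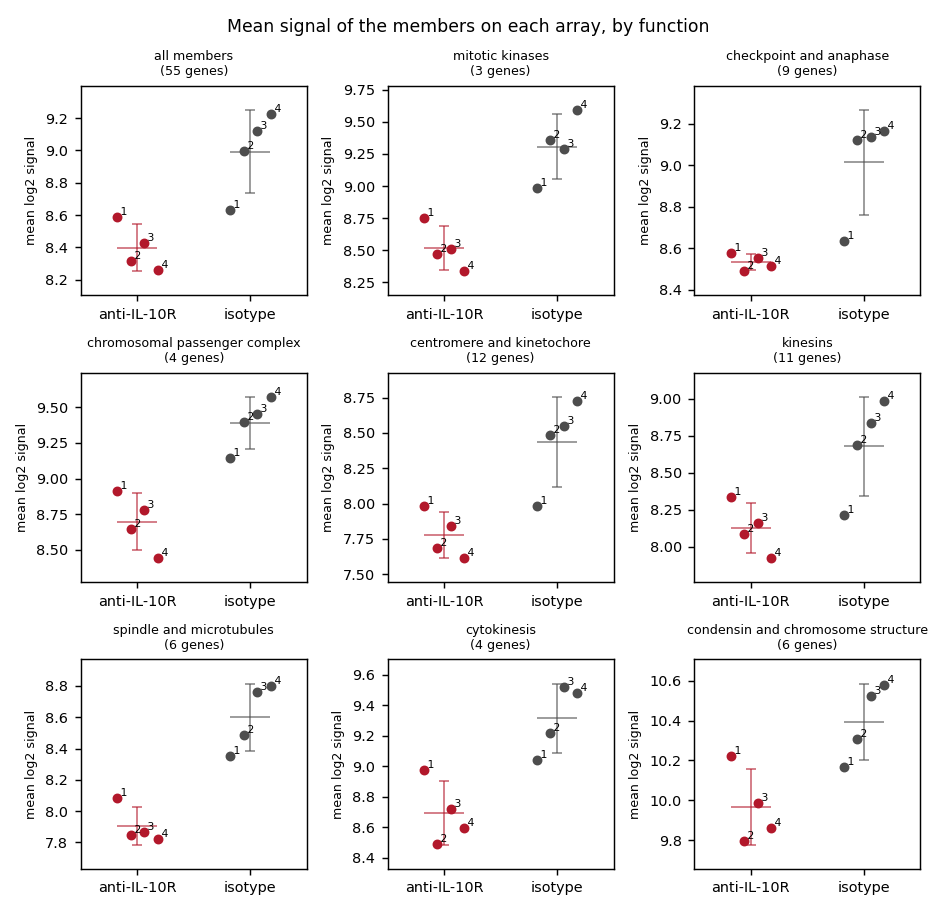
Mean log2 signal of the member genes on each array, for all 55 genes and for each of 8 functional classes; points are arrays, numbered by replicate, and bars give the mean and SD of 4 arrays. Each panel has its own scale, and isotype replicate 1 is the lowest isotype array in every panel.

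Other genes of the same machinery were set beside the members. Of 129 further genes listed by function, 120 were tested, and 94 of them were lower, with a median of −0.25. Of the 120 genes, 13 fell past the threshold (10.8%, against 1.3% of all genes tested) and none rose in limma. At an unadjusted p below 0.05, 4 were higher, as were 1377 of all 12019 genes tested. The groups did not overlap in 39 genes that were lower and 5 that were higher, against 5.99% and 9.32% of all genes tested. In the kinetochore list 21 of 23 were lower and 1 passed, Cenpp, an inner kinetochore gene, which fell by 0.71 ± 0.10 (SE, limma adjusted p = 0.017). Kntc1 and Ska1, which act at the outer kinetochore, differed by −0.69 ± 0.16 and −0.84 ± 0.19. In the checkpoint and APC/C list 18 of 24 were lower and 3 passed. They were Fbxo5, an inhibitor of the APC/C (a fall of 0.79 ± 0.11, adjusted p = 0.0176), Trip13, which takes the checkpoint complex apart (0.93 ± 0.16, 0.0254), and Ube2s, the enzyme that extends ubiquitin chains for the APC/C (0.57 ± 0.11, 0.0334). In the list of cohesin and condensin II genes 10 of 15 were lower and 1 passed, Esco2, which acetylates cohesin during S phase (a fall of 0.92 ± 0.12, adjusted p = 0.017). Cdca5 and Smc1a differed by −0.54 ± 0.12 and −0.34 ± 0.10, and the cohesin loader gene Mau2, chosen after its value was seen, by 0.33 ± 0.10.

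In the list of other spindle and centrosome genes 26 of 29 were lower and 4 passed, Tacc3, Plk4, Ckap2l and Spag5. Tacc3, which crosslinks spindle fibres, fell by 0.74 ± 0.12 (SE, limma adjusted p = 0.0254), and Plk4, the kinase of centriole duplication, by 0.56 ± 0.11 (0.0408). Ckap2l fell by 0.88 ± 0.18 (0.0424) and Spag5 by 0.80 ± 0.17 (0.0438). Other cytokinesis genes, most of which also serve membrane traffic or the actin skeleton in resting cells, had a median of −0.03, with 8 of 14 lower. Of them 1 passed, Shcbp1, a partner of the central spindle (a fall of 0.82 ± 0.18, adjusted p = 0.0488), and Cep55 and Cit, which act at the midbody, differed by −0.82 ± 0.20 and −0.50 ± 0.15. Among regulators of mitotic entry and of the mitotic genes, 11 of 15 were lower and 3 passed. Mybl2, the activator of the CHR genes, had 8.01, 7.80, 8.24 and 8.03 in the anti-IL-10R arrays, against 8.56, 8.97, 8.83 and 8.76 in the isotype arrays, a fall of 0.76 ± 0.13 (adjusted p = 0.0291). Cdk1, the kinase of mitosis, and Ccna2, its cyclin partner, fell by 0.67 ± 0.15 and 0.53 ± 0.11 (both 0.0488). Foxm1, named after its value was seen, differed by −0.58 ± 0.16. Rbl2, a pocket protein of the DREAM repressor, had a higher mean without passing and was chosen after its values were seen. It had 11.89, 11.82, 11.79 and 11.88 in the anti-IL-10R arrays, against 11.46, 11.57, 11.54 and 11.49 in the isotype arrays, a difference of 0.33 ± 0.09 without overlap (adjusted p = 0.0891). The other pocket protein gene in the list, Rbl1, also named after its value was seen, went the other way. It differed by −0.31 ± 0.11, likewise without overlap (limma adjusted p = 0.153).

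Genes of DNA replication, which act earlier in the cycle, were set beside the mitotic genes. All 29 tested had lower means, as had 45.3% of all genes tested, and the median was −0.63. Of the 29, 6 passed (20.7%), against 1.3% of all genes tested called lower. In 19 (65.5%) the groups did not overlap, against 49.1% of the members and 5.99% of all genes tested. Per-array means of the replication genes were 8.63, 8.44, 8.55 and 8.31 in the anti-IL-10R arrays, against 8.77, 9.22, 9.14 and 9.24 in the isotype arrays, with isotype replicate 1 again the lowest of its group. Rrm2, a subunit of ribonucleotide reductase, fell by 0.86 ± 0.15 (SE, limma adjusted p = 0.0294), and Tyms, thymidylate synthase, and Orc6, of the origin recognition complex, by 0.79 ± 0.15 and 0.81 ± 0.16. A difference between the replication and the mitotic genes was not tested. Their promoters held a CHR-type match in 22.2% of 27 cases and a CCAAT box in 63%, against 75% and 76.9% of the 52 member promoters. Both lists were compared on the same arrays, so their values are not independent.

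**Figure D5:**
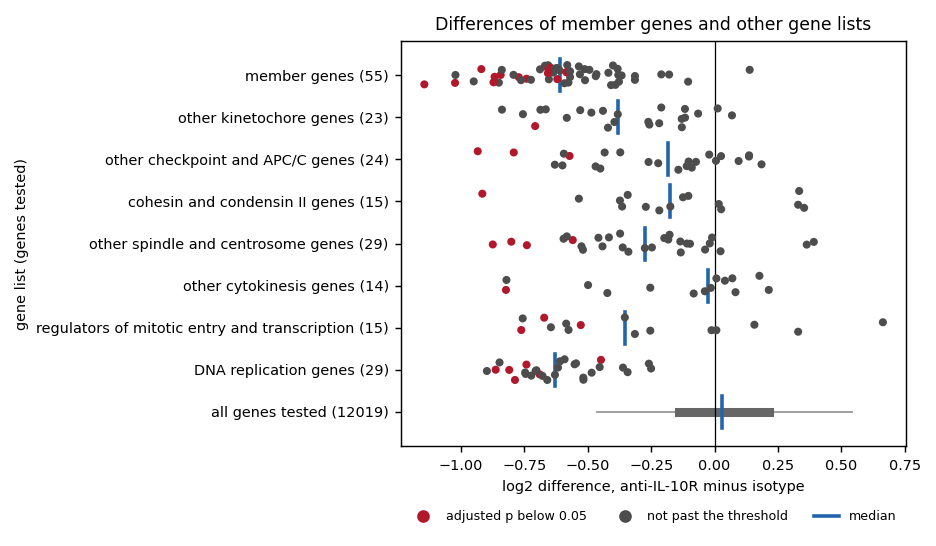
Log2 differences (anti-IL-10R minus isotype) of the member genes, 6 lists of other genes of the same machinery and the DNA replication genes, 1 point a gene, with the median of each list as a blue line and the number of genes tested in brackets; the bottom row gives the median, the 25th to 75th percentile (thick line, −0.14 to 0.21) and the 5th to 95th percentile (thin line, −0.46 to 0.54) of all 12019 genes tested. Medians are −0.61 for the member genes, −0.63 for the replication genes and −0.03 for the other cytokinesis genes.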

How the data were processed

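RNA of the sorted cells was extracted with a micro column kit and prepared with the WT Pico reagents, 1 sample per GeneChip Mouse Gene 2.0 ST array, per the labels' protocols. The authors deposited log2 values (range 1.57 to 13.89, from which the scale was read); the submitters' processing notes name Affymetrix Power Tools, and version, summarisation and normalization are not stated there. Array medians were 5.19 to 5.31. Levels of different genes cannot be compared, and precision is limited by the number of arrays.

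Of 41345 rows, 23521 had exactly 1 symbol in the platform annotation, 1814 had several, and 16010 had no entry and are unnamed here. The gene IDs of 23328 of the named rows were found in RefSeq (GRCm38.p6). The 12019 genes with a mean of at least 5.24 were fitted with limma 3.58.1 (R 4.3.3, lmFit and eBayes, 9.59 total degrees of freedom), two-sided, with Benjamini-Hochberg adjustment over all of them. Errors are SE unless marked SD. No label states that the arrays came from separate mice, so the p-values describe only the spread between these 8 arrays, which may be technical.

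The members, lists and tests were chosen with earlier results of these data known. Per-array values are given for the 3 members with the smallest p in a class (2 in classes of up to 4 genes), for Mki67 and Top2a, and, chosen after their values were seen, for Cdc20, Tpx2, Pttg1, Zwilch, Kif23, Mybl2 and Rbl2; in other lists the 3 genes with the smallest p were named, and Spag5 as the last of 4 that passed. Alternatives were other filters, scalings, variance models, array weights, blocks, a B cell covariate, another threshold, a Welch test and each array left out. Promoters came from the RefSeq table.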

Additional observations from a re-analysis of the deposited data

Results flagged for a closer look

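In 5 of 110 sets of 4 arrays (each member gene in each group), 1 array lay further from the other 3 than Dixon's 95% criterion allows, which chance gives in about 1 of 20 groups. Ttk in isotype replicate 1 was at 7.24, with the other isotype arrays at 8.43 to 8.64, and Cenpn in the same array was at 8.12, with the others at 8.50 to 8.58. Cenpf in anti-IL-10R replicate 1 was at 8.13, with the others at 6.99 to 7.16, and Fam83d in that array was at 7.37, with the others at 7.06 to 7.10. Kif22 in anti-IL-10R replicate 4 was at 8.26, with the others at 8.73 to 8.78. Of the class means, that of the checkpoint and anaphase genes was 8.64 in isotype replicate 1, with the other isotype arrays at 9.12 to 9.16, and that of the spindle and microtubule genes was 8.08 in anti-IL-10R replicate 1, with the others at 7.82 to 7.87. Fam83d and Kif22, which passed the threshold, had groups that did not overlap with these arrays included.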

How the results depend on the processing

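No member changed direction under any alternative fitted, and the median difference of the members lay between −0.54 and −0.78. The count past the threshold (14 of 55) moved. It was 7 with no filter on dim genes and with centred arrays, 23 of 53 with the stricter filter on means of at least 6.97 (3.33% of all genes called lower), 31 after quantile normalization, 48 with array weights (6.78%) and 32 at a threshold of 0.10 (3.49%). It was 2, Plk1 and Ckap2, with the Welch test (0.0749%), which called none of the cytokinesis and chromosome structure genes and 1 other gene of the machinery higher, Rbl2. With the mean of the B cell markers as a covariate it was 0 in limma. With 1 array left out it ranged from 0 to 47, and the median from −0.74 to −0.54. With all rows of a gene averaged it was 14 (1.36%) and with a trended, robust variance 20 (1.64%). The deviations of same-numbered arrays from their group means had correlations of −0.05, 0.12, 0.02 and −0.16. Those of differently numbered arrays ranged from −0.15 to 0.18. With 4 arrays per group, 1 of which stood apart, these values cannot show whether the numbers pair the arrays. The replicate block gave 0 members in limma (0.0166% of all genes, with 42 members lower at an unadjusted p below 0.05). The replicate block by title number, on the 6 arrays whose number occurs in both groups (replicate 1 of each group is left out), gave 38 (2.91%). By deviations, not every array correlated best with its own number. The cause of these shifts was not tested.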
